A study of Homo sapiens with 16 samples.

Results

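The E2F transcription factors *E2F1* to *E2F8* and the retinoblastoma pocket proteins *RB1* and *RBL1* were followed in RNA-Seq of MUTZ-3, an acute myeloid leukemia line with an inversion of chromosome 3 that places *EVI1* (listed as *MECOM*) under a distant enhancer. The 10 genes were selected by gene name from the 60623 gene rows present in each of 16 libraries. The rule uses no measured value, although the members were chosen with earlier results of these data known. All 10 were above the filters on low counts in both experiments. The lowest count of any of them was 60 reads, for *E2F8* after 48 h of talazoparib.

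In the inhibitor experiment, MUTZ-3 cells were left untreated and collected at 0 h, or were given the PARP inhibitors olaparib at 10 µM or talazoparib at 1 µM, or their DMSO vehicle, and collected at 12, 24 and 48 h. In the knockdown experiment, cells were transduced with a lentiviral pLKO.1 vector carrying a commercial non-targeting hairpin (NTC), shEVI1-2531 or shEVI1-2532, selected with puromycin and collected at day 3 and day 6. All cells grew in medium conditioned by the 5637 bladder carcinoma line with added GM-CSF. Each condition was 1 library of 1 cell line, so no condition has a repeat culture. Time points or days stand in as repeats in the tests of mean effects and hairpins. Their p-values rest on the spread among those libraries and on a variance edgeR shares across genes. In the test of change with time, the hours are the variable tested. Its p-values rest on scatter around a line in log2 hours and on that shared variance, not on repeats.

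E2F factors bind a shared DNA element in the promoters of genes for DNA replication and cell-cycle progression. *E2F1*, *E2F2* and *E2F3* are known as activators, *E2F4* and *E2F5* as repressors that act with pocket proteins, *E2F6* as a repressor within a Polycomb complex, and *E2F7* and *E2F8* as atypical repressors that need no DP partner. Pocket proteins hold E2F factors in check until cyclin-dependent kinases phosphorylate them, and several family members are themselves E2F targets that are transcribed around the G1/S transition. In hematopoietic cells the family couples proliferation to exit from the cell cycle during differentiation.

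The promoters of *E2F1*, *E2F2* and *RBL1* are printed because they hold words of the E2F element close to the start site. The sequences are from RefSeq on GRCh38.p14, the build family of the files, and cover the 100 bases before the annotated start, read 5′ to 3′ on the strand of the gene. *E2F1* is at chr20:33686386-33686485 on the minus strand, *E2F2* at chr1:23531234-23531333 on the minus strand, *RBL1* at chr20:37095998-37096097 on the minus strand, *E2F3* at chr6:20401779-20401878 on the plus strand and *E2F7* at chr12:77065570-77065669 on the minus strand. *E2F3* and *E2F7* are shown beside them. *E2F3* holds a word and did not pass the test of change with time given below, whereas *E2F7* holds none and fell in it. A link between these words and the changes in level was not tested. Capitals mark the words TTTCCCGC, TTTCGCGC, TTTGCCGC and TTTGGCGC on either strand.
E2F1: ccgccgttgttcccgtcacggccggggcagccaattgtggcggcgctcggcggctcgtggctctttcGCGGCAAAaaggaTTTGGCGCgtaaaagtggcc
E2F2: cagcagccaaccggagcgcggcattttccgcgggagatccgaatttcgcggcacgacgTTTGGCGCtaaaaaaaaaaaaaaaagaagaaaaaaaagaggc
RBL1: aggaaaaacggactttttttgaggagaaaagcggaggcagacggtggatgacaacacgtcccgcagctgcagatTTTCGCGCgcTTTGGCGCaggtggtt
E2F3: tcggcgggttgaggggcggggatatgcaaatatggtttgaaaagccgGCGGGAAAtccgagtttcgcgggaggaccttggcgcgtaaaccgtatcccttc
E2F7: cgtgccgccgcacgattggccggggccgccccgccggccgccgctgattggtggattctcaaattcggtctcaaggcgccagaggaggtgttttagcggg

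Among 35116 RefSeq promoter windows of 300 bases, 3.31% held at least 1 of these words on either strand and 0.145% held at least 2 matches. The *E2F1* window held TTTGGCGC from base -20 and TTTGCCGC on the other strand from base -33, counted from the start site. *RBL1* held TTTCGCGC from base -26 and TTTGGCGC from base -16, with no overlap between them. *E2F2* held TTTGGCGC from base -42, and the upstream start of *E2F3* held TTTCCCGC on the other strand from base -53. The windows of *E2F4*, *E2F6*, *E2F7* and *RB1* held none of these letters, and the *RB1* entry is at a start inside the gene. The table used holds an entry for 8 of the 10 members, and *E2F5* and *E2F8* have none. A match of letters is a description of the window, not a measured binding site.

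Library totals were 55999673 to 72681943 counts in the inhibitor experiment and 95523038 to 120716213 counts in the knockdown experiment. Levels are given as CPM, counts scaled to a common library size, and 3 counts of a library total corresponded to between 0.0249 and 0.0536 CPM before TMM. The levels printed were scaled with TMM, a factor that sets the bulk of genes equal between libraries. Scaling to library totals alone would move the median of all tested genes by -0.19 and -0.27 (log2) in olaparib and talazoparib at 48 h, by -0.18 and -0.14 with shEVI1-2531 at day 3 and day 6, and by -0.27 and -0.31 with shEVI1-2532, and the changes below are relative to that median. Myeloid markers were present in every library, with *CD33* at 76.2 to 183 CPM and *SPI1* at 192 to 555 CPM, whereas the B-cell marker *MS4A1* and the globin gene *HBA2* were at 0 in all 16. Summed over their lists, erythroid genes reached at most 0.188 CPM, urothelial genes 4.13 CPM, T and NK cell genes 12.7 CPM and B-cell genes 17.7 CPM, of which *CD79A* alone made up to 16.7 CPM.

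Per kilobase of exon, *E2F4* was the most abundant member and *E2F5* the least in vehicle-treated cells. These levels per length are CPM of the library totals, without TMM, so they compare genes within a library. *E2F4*, which occupies promoters with pocket proteins in quiescent cells, was at 36.9, 30.9 and 24 CPM per kilobase in DMSO at 12, 24 and 48 h, with no overlap with any other member. *E2F3*, *RB1*, *E2F1* and *E2F6* followed with means of 12.9, 12, 10.9 and 8.89 CPM per kilobase. In every DMSO library *E2F3* stood above *E2F1*, and both *E2F3* and *RB1* stood above *E2F6*. The order of *E2F3* and *RB1*, of *RB1* and *E2F1* and of *E2F1* and *E2F6* differed between DMSO libraries and is not resolved. *RBL1*, *E2F2* and *E2F8* had means of 5.53, 4.38 and 4.17 CPM per kilobase with overlapping ranges, *E2F7* was lower at 1.92 to 3.3, and *E2F5* was at 0.844 to 0.972. Exon lengths were the union of exons in GENCODE 29, in which 7 of the 10 genes have another span than in the files, so these levels are approximate. In NTC at day 3 and day 6, *E2F4* was again the highest (26 and 30.7) and *E2F5* the lowest (0.725 and 0.716).

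**Figure D1:**
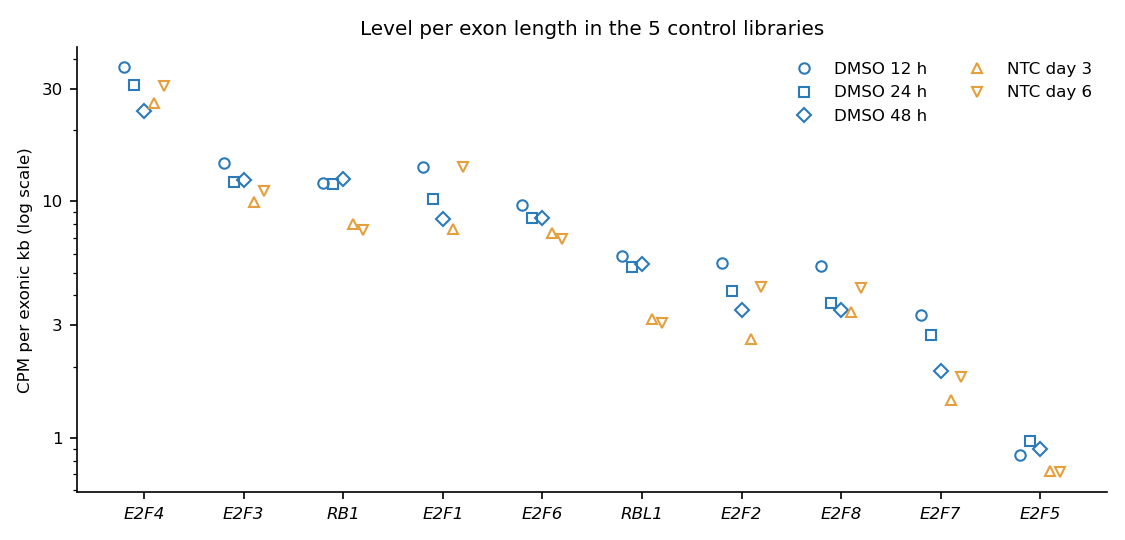
Level of each member in the 5 control libraries, as CPM of library totals (without TMM) per kilobase of exon on a log axis, with 1 point for each library of DMSO (12, 24 and 48 h) or NTC (day 3 and day 6). *E2F4* is at the top with 24 to 36.9 CPM per kilobase in DMSO and *E2F5* at the bottom with 0.844 to 0.972.

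Levels of several members also drifted without inhibitor. *E2F1* was at 43.5 CPM in untreated cells and at 33.5, 24.7 and 20.6 CPM in the DMSO libraries of 12, 24 and 48 h, a log2 ratio of -0.70 between the last and the first DMSO library (95% interval of counting error -0.80 to -0.61). *E2F2* was at 32.5 CPM before culture with vehicle, then at 28.7, 21.9 and 18.4 CPM. *E2F7* had 15.6 CPM in untreated cells, then 19.9, 16.5 and 11.8 CPM, and *E2F4* was at 126, 106 and 83.4 CPM in DMSO. *RB1* and *RBL1* stayed within 73 to 77.6 and 30.3 to 33.4 CPM in the DMSO libraries. Each inhibitor library was therefore set against DMSO of the same hour.

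The effect of the inhibitors became more negative with time for 6 members. In edgeR's quasi-likelihood test of whether the effect of either inhibitor changed with the log2 of hours, *E2F1*, *E2F2*, *E2F5*, *E2F7*, *E2F8* and *RBL1* fell with time past an adjusted p of 0.05 and none rose, where 8.31% of all 17218 tested genes fell. Slopes are the mean of those of both inhibitors, and the p is from the joint test of the 2. The median slope of the 10 members was -0.68 (log2) per doubling of hours, and that of all genes was -0.01. *E2F3*, *E2F4*, *E2F6* and *RB1* did not pass this test. The fit holds a term for each hour, so without DMSO of an hour the mean slope rests on the other hours. Without DMSO at 48 h it describes the change from 12 to 24 h. The slopes of *E2F1*, *E2F2*, *E2F7* and *E2F8* were then -0.57, -0.63, -0.64 and -0.70 and still past the threshold, and 4 members were called. Without DMSO at 12 h, which leaves the change from 24 to 48 h, the slopes of the same genes were steeper, at -1.32, -1.45, -1.62 and -1.95. At 48 h, 7 of the 10 members were more than 2-fold lower than DMSO with talazoparib, against 14.7% of all genes, and 5 of 10 with olaparib, against 7.95%. After 24 h of talazoparib no member was more than 2-fold lower, where 3.78% of all genes were.

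**Figure D2:**
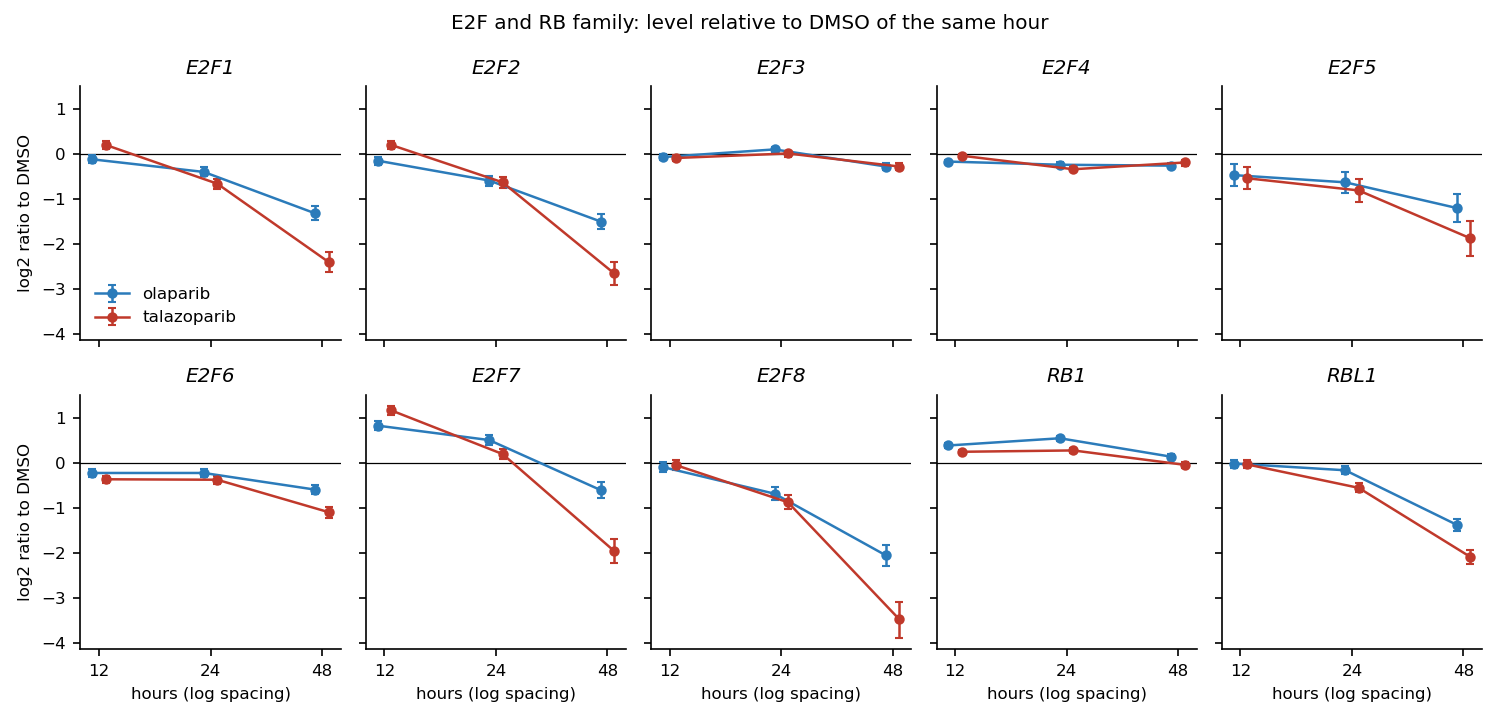
Log2 ratio of each member to DMSO of the same hour (y axis) at 12, 24 and 48 h (x axis, log spacing) for olaparib (blue) and talazoparib (red). Each point is 1 library and bars are 95% intervals of counting error. *E2F7* starts above the DMSO level at 12 h and ends at -0.61 and -1.96, whereas *E2F3*, *E2F4* and *RB1* stay between -0.34 and 0.54.

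*E2F1* (ENSG00000101412, chromosome 20, 33675477 to 33686385, minus strand) and *E2F2* (ENSG00000007968, chromosome 1, 23506438 to 23531233, minus strand) are activators that drive S-phase genes. *E2F1* was at 30.8, 18.7 and 8.25 CPM with olaparib at 12, 24 and 48 h and at 38.5, 15.6 and 3.88 CPM with talazoparib. At 12 h its talazoparib library stood above DMSO, and from 24 h on both inhibitors stood below it. The slope of *E2F1* was -0.94 (log2) per doubling of hours (SE 0.14, adjusted p = 2.3e-12, edgeR), and at 48 h its level was 40.1% of DMSO with olaparib and 18.9% with talazoparib. *E2F2* was at 25.8, 14.5 and 6.52 CPM with olaparib and at 32.9, 14.1 and 2.94 CPM with talazoparib. It had a slope of -1.03 (SE 0.14, adjusted p = 7.9e-14, edgeR), and its levels at 48 h were 35.4% and 16% of DMSO. Over the 10 treated libraries of both experiments, *E2F1* and *E2F2* had a root mean square difference of 0.21 between their log2 ratios. This was the smallest of any pair of members, beside 0.22 for *E2F3* and *E2F4*. Genes outside the family were closer, with *TIMELESS* at 0.15 from *E2F1* and *CDCA5* at 0.17 from *E2F2*.

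*E2F3* (ENSG00000112242, chromosome 6, 20401879 to 20493714, plus strand), the third activator, did not pass the test. It was at 67.9, 64.5 and 50.6 CPM with olaparib and at 67.3, 60.4 and 50.7 CPM with talazoparib, against 71.5, 60.2 and 61.5 CPM in DMSO. Only the libraries of 48 h lay below every DMSO library, at 82.3% and 82.4% of DMSO of that hour. Its slope was -0.10 (SE 0.13, 95% interval -0.36 to 0.16, adjusted p = 0.928, edgeR).

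*E2F4* (ENSG00000205250, chromosome 16, 67192155 to 67198918, plus strand) was at 112, 90.3 and 69.7 CPM with olaparib and at 122, 84.1 and 72.9 CPM with talazoparib. All 6 inhibitor libraries lay slightly below DMSO of their hour, at 79% to 97.1%, and the mean effect was -0.21 (SE 0.09, adjusted p = 0.136, edgeR). *E2F5* (ENSG00000133740, chromosome 8), the other canonical repressor, was at 4.78, 5.55 and 5.19 CPM in DMSO, at 3.45, 3.58 and 2.26 CPM with olaparib and at 3.29, 3.17 and 1.42 CPM with talazoparib. Every inhibitor library of *E2F5* was below every DMSO library, already at 12 h, and untreated cells at 3.29 CPM were also below DMSO. The mean of its inhibitor effects over the 3 times was -0.92 (SE 0.20, adjusted p = 0.048, edgeR), which made it the single member called lower in that test, where 1.01% of all genes were lower. At an unadjusted p under 0.05 there were 8 members, of which *RB1* was higher, and 6047 of the 17218 genes. The call of *E2F5* was lost without the 24 h libraries (-1.03, adjusted p = 0.34) and with each of 6 single libraries left out (adjusted p 0.0614 to 0.197). Its slope of -0.51 (SE 0.17, adjusted p = 0.0448, edgeR) was lost under 11 of 14 alternatives, among them DESeq2 (adjusted p = 0.2). Another was the fit without DMSO at 48 h (-0.22, adjusted p = 0.954), which leaves the mean slope to the change from 12 to 24 h. *E2F5* shares its locus with *RBIS* on the opposite strand, whose median count was 811% of that of *E2F5*, and no source says if reads were assigned by strand, so its values are uncertain.

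*E2F6* (ENSG00000169016, chromosome 2, 11444375 to 11466177, minus strand), the Polycomb-linked repressor, was at 37.5, 33.4 and 33.5 CPM in DMSO. It was at 32, 28.4 and 22.2 CPM with olaparib and at 29.1, 25.7 and 15.6 CPM with talazoparib, and all 6 inhibitor libraries were below all 3 DMSO libraries. Neither its mean effect of -0.49 (SE 0.13, adjusted p = 0.0591) nor its slope of -0.27 (SE 0.13, adjusted p = 0.233) passed edgeR's test. The mean effect passed with DESeq2 (-0.5, adjusted p = 0.0156) and in edgeR without a filter on low counts (-0.5, adjusted p = 0.0195). It did not pass with other scalings or the stricter filter.

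The atypical repressors took different courses at 12 h. *E2F7* (ENSG00000165891, chromosome 12, 77021248 to 77065569, minus strand), which is also a known p53 target, was at 35.1, 23.4 and 7.74 CPM with olaparib and at 44.3, 18.9 and 3.03 CPM with talazoparib, against 19.9, 16.5 and 11.8 CPM in DMSO. Both inhibitor libraries were above DMSO at 12 h and at 24 h and both were below it at 48 h. Its log2 ratios were 0.82 (95% counting interval 0.73 to 0.92) and 1.16 (1.06 to 1.25) at 12 h and -0.61 (-0.78 to -0.43) and -1.96 (-2.23 to -1.70) at 48 h. At 12 h of talazoparib *E2F7* was the 1 member more than 2-fold higher, as were 3.53% of all genes. Its slope was -1.12 (SE 0.14, adjusted p = 8.4e-17, edgeR). Averaged over 12, 24 and 48 h the inhibitor effect on *E2F7* was -0.00 (SE 0.32, adjusted p = 0.999), and without the 48 h libraries it was 0.67 (adjusted p = 0.0354, edgeR).

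*E2F8* (ENSG00000129173, chromosome 11, 19224063 to 19241620, minus strand) had the lowest ratio to DMSO of any member. It was at 21.1, 14.7 and 14 CPM in DMSO, at 19.7, 9.15 and 3.34 CPM with olaparib and at 20.3, 8.01 and 1.25 CPM with talazoparib. At 12 h all libraries were alike, and at 48 h the level was 23.9% of DMSO with olaparib and 8.96% with talazoparib. The slope was -1.31 (SE 0.15, adjusted p = 1.6e-17, edgeR). Its mean effect of -1.24 (SE 0.44) had an adjusted p of 0.0933 in edgeR, with ratios of -0.10 and -0.06 at 12 h.

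Of the pocket proteins, *RBL1* (p107) fell with time and *RB1* did not pass the test. *RBL1* (ENSG00000080839, chromosome 20, 36996349 to 37095997, minus strand) was at 33.4, 30.3 and 31.4 CPM in DMSO, at 32.8, 26.9 and 12 CPM with olaparib and at 32.5, 20.5 and 7.35 CPM with talazoparib. Its 12 h libraries were at 98.4% and 97.5% of DMSO, and its 48 h libraries were at 38.3% and 23.4%. The slope was -0.85 (SE 0.13, adjusted p = 1.1e-08, edgeR). It was -0.34 (adjusted p = 0.356) when the DMSO library of 48 h was left out, which leaves the change from 12 to 24 h. *RB1* (ENSG00000139687, chromosome 13, 48303726 to 48599436, plus strand) was at 94.8, 106 and 84.9 CPM with olaparib and at 86.2, 88.6 and 74.8 CPM with talazoparib, against 73, 73.4 and 77.6 CPM in DMSO. The 12 h and 24 h libraries of both inhibitors were above all DMSO libraries, with the highest at 145% of DMSO, and talazoparib at 48 h was at 96.4%. With scaling to library totals its 48 h log2 ratios of 0.13 and -0.05 were -0.06 and -0.32. The mean effect on *RB1* was 0.25 (SE 0.10, adjusted p = 0.122, edgeR). *RB1* overlaps *RCBTB2* and *LPAR6* on the opposite strand, with 32.3% and 8.12% of its median count. *RBL2* (p130), the pocket protein outside the 10, was at 130% of DMSO after 48 h of talazoparib and had a mean effect of 0.23 (SE 0.10, adjusted p = 0.135, edgeR).

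**Figure D3:**
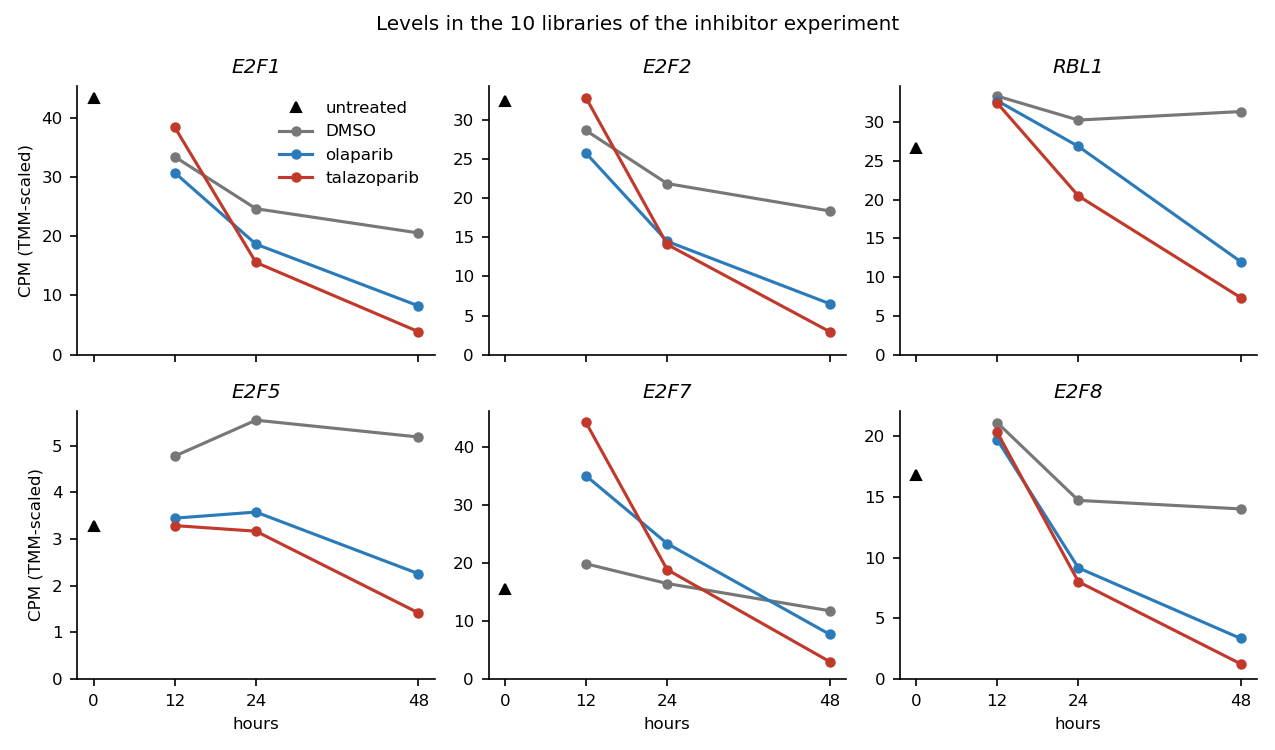
CPM (y axis, from 0) against hours (x axis) for the 6 members whose inhibitor effect changed with time, with 1 point for each of the 10 libraries of the inhibitor experiment. *E2F1* and *E2F2* also decline in DMSO (grey), from 33.5 to 20.6 CPM and from 28.7 to 18.4 CPM, whereas *RBL1* stays between 30.3 and 33.4 CPM there.

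No member differed past the threshold between the inhibitors in the mean over the hours. In edgeR's test of talazoparib against olaparib over the 3 times, 0 of the 10 members and 0.0% of all genes passed an adjusted p of 0.05. No member and 354 genes had an unadjusted p under 0.05, and DESeq2 called no member and 1 gene. The intervals of these differences were wide, for example -1.46 to 0.84 (log2) for *E2F8* and -1.08 to 0.44 for *RBL1*, and both inhibitors share the DMSO libraries. The doses also differ, so the values of both compounds stand side by side as given for each member. A mean over the hours can miss a difference that appears late, and the slopes of the inhibitors were not tested against each other. With olaparib and talazoparib the slopes were -0.60 and -1.29 for *E2F1*, -0.67 and -1.39 for *E2F2* and -0.36 and -0.65 for *E2F5*. They were -0.71 and -1.53 for *E2F7*, -0.98 and -1.63 for *E2F8*, -0.68 and -1.02 for *RBL1* and -0.10 and -0.09 for *E2F3*.

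Other genes of the pathway were counted over lists. Of 26 textbook G1/S targets of E2F, 24 fell with time in the slope test and none rose, where 8.15% of all genes rose, and their median log2 ratios for talazoparib were 0.01, -0.77 and -2.62 in the order of the hours. *CHEK1*, a checkpoint kinase, was at -3.34, and the helicase subunits *MCM6* and *MCM4* and the replication initiation factor *CDC45* were at -3.27, -3.20 and -3.17 after 48 h of talazoparib. Of 7 genes for the MuvB core, B-MYB and FOXM1, which act with pocket proteins or drive G2/M genes, 4 fell and none rose, with *FOXM1* at -3.16, *MYBL2* at -3.06, *LIN9* at -1.65 and *RBBP4* at -1.09. Of 10 G1/S cyclins, kinases and their phosphatase, 7 fell and 2 rose, with *CCNA2* at -3.82, *CDC25A* at -2.31 and *CDK2* at -2.20 and with *CCND1* at 1.48. Of 6 tested CDK inhibitor genes, 3 rose and none fell, and *CDKN1A* (p21) was at 1.36 and 1.66 at 12 h and at 2.50 and 2.83 at 48 h of olaparib and talazoparib. *CDKN1C* and *CDKN2A* were at 1.51 and 1.17 after 48 h of talazoparib. None of 10 Polycomb partners of *E2F6* and none of the DP partners *TFDP1* and *TFDP2* passed the slope test. *TFDP1* was at 60.3% and *TFDP2* at 76.4% of DMSO after 48 h of talazoparib.

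Markers of cycling cells also fell with the inhibitors. Of 15 G2/M genes, 14 fell with time and none rose. Their summed level was 2572 to 3036 CPM in DMSO, 2369, 1897 and 904 CPM with olaparib and 2010, 1002 and 259 CPM with talazoparib. At 12 h of talazoparib all 15 were already below DMSO, with a median log2 ratio of -0.53. The median of the 10 members was -0.04 there, with 6 of them below DMSO. *KIF20A*, *CENPF*, *BUB1B* and *CDC20* were at -4.03, -4.00, -4.00 and -3.95 (log2) after 48 h of talazoparib. Fewer cells in cycle and less RNA of these genes per cell cannot be told apart in bulk libraries, and the part of cell-cycle position in the members' levels was not tested. Of 10 myeloid markers, 5 rose with time, among them *CD14* (2.12) and *LYZ* (1.45), and 2 fell, *CD34* (-0.83) and *MPO* (-0.86). These 4 values are slopes in log2 per doubling of hours. Their summed level was 4482 CPM in untreated cells, 2617, 3185 and 3889 CPM in DMSO, 2588, 2898 and 4193 CPM with olaparib and 3009, 3432 and 6142 CPM with talazoparib, and their part was not tested either.

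The knockdown experiment was checked first on its target. *MECOM* was at 40.6 and 37.2 CPM in NTC at day 3 and day 6, at 13.2 and 17.5 CPM with shEVI1-2531 and at 5.14 and 4.31 CPM with shEVI1-2532. These levels were 32.4% and 47.1% of NTC with shEVI1-2531 and 12.7% and 11.6% with shEVI1-2532. With the inhibitors *MECOM* was at 37.7% and 16.2% of DMSO at 48 h of olaparib and talazoparib (23.3 and 9.98 CPM). It rose without inhibitor, from 28.3 CPM in untreated cells to 48.8, 49 and 61.8 CPM in DMSO at 12, 24 and 48 h.

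With shEVI1-2532, the hairpin with the lower *MECOM* level, 6 members fell. In edgeR's test of shEVI1-2532 against NTC over both days, *E2F1*, *E2F2*, *E2F5*, *E2F7*, *E2F8* and *RBL1* fell and none rose, while 19.9% of all 18606 tested genes were called lower. The median of the 10 members was -1.02 (log2), and that of all genes was -0.00. More than 2-fold lower were 5 of 10 members at day 3, against 15.7% of all genes, and 4 of 10 at day 6, against 15.1%. With shEVI1-2531 against NTC, *E2F5*, *E2F8* and *RBL1* fell and none rose, against 7.9% of all genes. More than 2-fold lower with that hairpin were 2 members at day 3 (*E2F8* and *RBL1*), against 11.7%, and *E2F5* alone at day 6, against 8.37%. Both tests use the same NTC libraries.

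**Figure D4:**
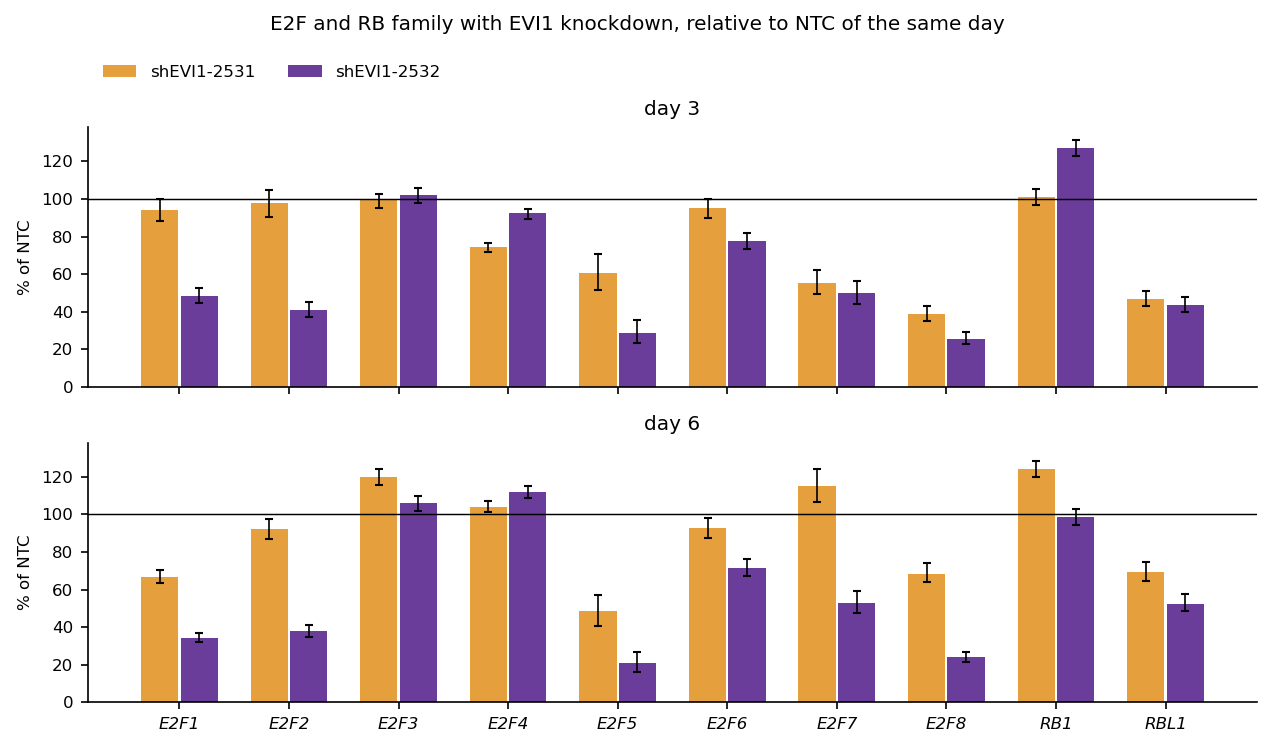
Level of each member as a percent of NTC of the same day (y axis, from 0) with shEVI1-2531 (orange) and shEVI1-2532 (purple), at day 3 (top) and day 6 (bottom). Bars are single libraries with 95% intervals of counting error. *E2F8* is at 25.7% and 24% with shEVI1-2532, and *E2F1* and *E2F2* are at 94% and 97.7% with shEVI1-2531 at day 3.

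*E2F8* was at 13.5 and 14.9 CPM in NTC at day 3 and day 6, at 5.24 and 10.2 CPM with shEVI1-2531 and at 3.48 and 3.59 CPM with shEVI1-2532. All knockdown libraries were below both NTC libraries. The change was -2.01 (SE 0.24, adjusted p = 4.3e-05, edgeR) with shEVI1-2532 and -0.93 (SE 0.23, adjusted p = 0.016) with shEVI1-2531, the latter lost without the shEVI1-2531 library of day 3 (-0.52, adjusted p = 0.259) or the NTC library of day 3 (-0.79, adjusted p = 0.115). *E2F5* was at 4.11 and 3.57 CPM in NTC, at 2.48 and 1.73 CPM with shEVI1-2531 and at 1.18 and 0.746 CPM with shEVI1-2532. Its 3 pairs of libraries did not overlap, and the changes were -2.02 (SE 0.26, adjusted p = 6.9e-05, edgeR) and, with shEVI1-2531, -0.89 (SE 0.24, adjusted p = 0.0261), which was lost without the NTC library of day 6 (-0.67, adjusted p = 0.194) or either shEVI1-2531 library (adjusted p = 0.0942 and 0.102).

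*RBL1* was at 18.1 and 15.3 CPM in NTC, at 8.53 and 10.6 CPM with shEVI1-2531 and at 7.92 and 8.05 CPM with shEVI1-2532. It fell by 1.07 on the log2 scale with shEVI1-2532 (SE 0.19, adjusted p = 0.000794, edgeR) and by 0.81 with shEVI1-2531 (SE 0.19, adjusted p = 0.0116). The latter was lost without the day 3 library of shEVI1-2531 (-0.59, adjusted p = 0.154) or of NTC (-0.64, adjusted p = 0.0942). *RBL1* did not differ past the threshold between the hairpins (-0.26, 95% interval -0.67 to 0.15, adjusted p = 0.349).

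The activators *E2F1* and *E2F2* fell with shEVI1-2532 and did not pass the test with shEVI1-2531. *E2F1* was at 18.3 and 29.4 CPM in NTC, at 17.2 and 19.6 CPM with shEVI1-2531 and at 8.84 and 10.2 CPM with shEVI1-2532. *E2F2* was at 13.7 and 20 CPM in NTC, at 13.4 and 18.4 CPM with shEVI1-2531 and at 5.63 and 7.54 CPM with shEVI1-2532. Both shEVI1-2532 libraries were below all others for both genes. The changes with shEVI1-2532 were -1.30 (SE 0.19, adjusted p = 0.000169) for *E2F1* and -1.34 (SE 0.17, adjusted p = 6.8e-05) for *E2F2*, and with shEVI1-2531 they were -0.35 (SE 0.18, adjusted p = 0.221) and -0.08 (SE 0.17, adjusted p = 0.803) in edgeR. NTC itself was higher at day 6 than at day 3 in *E2F1* and *E2F2*, by 0.69 (95% counting interval 0.61 to 0.76) and 0.54 (0.45 to 0.63) on the log2 scale.

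*E2F7* was at 8.7 and 9.53 CPM in NTC, at 4.81 and 10.9 CPM with shEVI1-2531 and at 4.37 and 5.05 CPM with shEVI1-2532. It was below NTC in both shEVI1-2532 libraries and in the day 3 library of shEVI1-2531, and above NTC in the day 6 library of shEVI1-2531. The change with shEVI1-2532 was -0.96 (SE 0.25, adjusted p = 0.00948, edgeR), and it was lost without the NTC library of day 3 (-0.71, adjusted p = 0.111) or the shEVI1-2532 library of day 6 (-0.75, adjusted p = 0.0552). With shEVI1-2531 it was -0.29 (SE 0.25, adjusted p = 0.468) and had the other sign without the day 3 library of that hairpin (0.18, adjusted p = 0.8), whereas without its day 6 library it was past the threshold (-0.82, adjusted p = 0.0377, edgeR).

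*E2F6* was at 28.6 and 23.8 CPM in NTC, at 27.2 and 22 CPM with shEVI1-2531 and at 22.2 and 17.1 CPM with shEVI1-2532. Its change with shEVI1-2532 of -0.42 (SE 0.16, adjusted p = 0.0519, edgeR) missed the threshold and was past it with DESeq2 (-0.43, adjusted p = 0.0296). In edgeR it was also past it with library totals (-0.72, adjusted p = 0.00457), with upper quartile scaling, with either other filter and without either shEVI1-2531 library. It was not past it with any NTC or shEVI1-2532 library left out. *E2F3* lay within 48.4 to 58 CPM and *RB1* within 40.4 to 63.3 CPM in the 6 knockdown libraries. *E2F4* was at 66.2 CPM with shEVI1-2531 at day 3 and between 82.1 and 103 CPM in the other 5. With shEVI1-2532 the changes of *E2F3*, *E2F4* and *RB1* were 0.05, 0.02 and 0.17 (adjusted p = 0.792, 0.939 and 0.433, edgeR), and with scaling to library totals they had the other sign.

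Between the hairpins, 4 members were lower with shEVI1-2532 than with shEVI1-2531 and none was higher, where 12.0% of all genes were lower. These were *E2F2* (-1.27, SE 0.17, adjusted p = 0.000322), *E2F5* (-1.14, SE 0.26, adjusted p = 0.00748), *E2F8* (-1.08, SE 0.24, adjusted p = 0.00649) and *E2F1* (-0.95, SE 0.19, adjusted p = 0.00315) in edgeR's test. Without the shEVI1-2532 library of day 6, *E2F5* (-0.99, adjusted p = 0.0721) and *E2F8* (-0.81, adjusted p = 0.0569) were no longer past the threshold, and *E2F8* was also lost without the shEVI1-2531 library of day 6 (-0.65, adjusted p = 0.0798). When both hairpins were taken as 1 group, 0 members passed edgeR's test, against 0.806% of all genes called lower. In that test 3 members (*E2F5*, *E2F8* and *RBL1*) had an unadjusted p under 0.05, as did 4406 of the 18606 genes, and DESeq2 called 3 members and 2442 genes.

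Over all genes, 21.2% were called higher with shEVI1-2532 and 9.49% with shEVI1-2531, beside the shares called lower above. Of the 26 E2F targets, 25 fell with shEVI1-2532 and 11 with shEVI1-2531, none rose, and the median changes were -1.04 and -0.41 (log2). *CLSPN* and *MCM3*, which act in checkpoint signaling and replication, changed by -1.91 and -1.85 with shEVI1-2532. Of the MuvB, B-MYB and FOXM1 genes, 6 of 7 fell with shEVI1-2532, with *FOXM1* at -1.67 and *MYBL2* at -1.57. None of the 7 passed the test with shEVI1-2531, where their median was -0.37 and *LIN9* was at -0.64 (adjusted p = 0.0642, edgeR). Of the G1/S cyclins and kinases, 4 fell and 1 rose with shEVI1-2532, with *CDC25A* at -1.30 and *CCNA2* at -1.28, and 1 fell and 3 rose with shEVI1-2531. Of the 6 CDK inhibitor genes, 1 rose and 1 fell with shEVI1-2532 and 2 rose with shEVI1-2531. *CDKN1A* rose with both hairpins (1.58 with shEVI1-2532 and 1.34 with shEVI1-2531), *CDKN2C* fell with shEVI1-2532 (-0.45), and *CDKN2A* rose with shEVI1-2531 (1.36, adjusted p = 0.000224) and was at 0.14 (adjusted p = 0.519, edgeR) with shEVI1-2532. Among the partners, *RBL2* rose (0.53, SE 0.18, adjusted p = 0.0326) and *TFDP1* and *TFDP2* fell (-0.38 and -0.50, adjusted p = 0.0399 and 0.0185) with shEVI1-2532 in edgeR. Of the Polycomb partners of *E2F6*, 3 of 10 fell and 1 rose with shEVI1-2532, with *PCGF6* at -1.57 and *RYBP* at 0.73.

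All 15 G2/M genes fell with shEVI1-2532 and 11 with shEVI1-2531, and none rose. Their summed level was 1949 and 1576 CPM in NTC, 1269 and 1104 CPM with shEVI1-2531 and 584 and 522 CPM with shEVI1-2532, with *CENPF* at -2.84 and *KIF11* at -1.91 for shEVI1-2532. Of the 10 myeloid markers, 7 rose and 1 fell with shEVI1-2532, and 5 rose and 1 fell with shEVI1-2531. The 1 that fell was *CD34*, a marker of progenitors, at -6.78 and -2.43, and *LYZ*, a gene of mature cells, was at 4.85 and 2.59. The sums of the list, to which *LYZ* contributed up to 5605 CPM, were 4362 and 4262 CPM in NTC, 5370 and 6835 CPM with shEVI1-2531 and 7687 and 10080 CPM with shEVI1-2532. The part of either list in the members' levels was not tested.

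**Figure D5:**
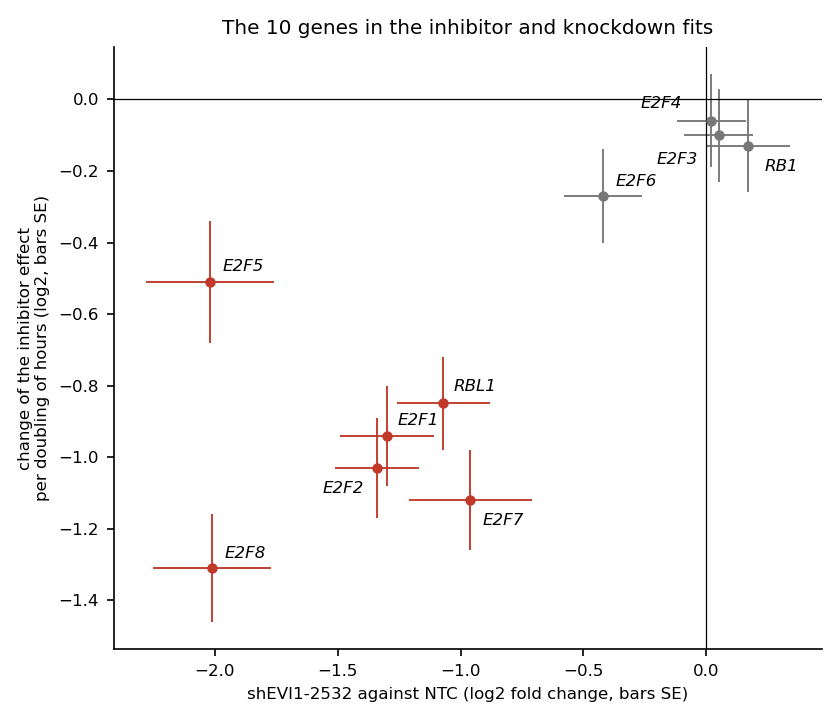
Change of the inhibitor effect per doubling of hours (y axis, log2, mean of both inhibitors) against the change with shEVI1-2532 (x axis, log2) for each of the 10 genes, with bars of 1 SE. The 6 genes past the threshold in both tests (red) lie at -0.96 or lower on the x axis and at -0.51 or lower on the y axis, and *E2F3*, *E2F4* and *RB1* lie close to 0 on both. Of all tested genes, 8.31% fell with time and 19.9% fell with shEVI1-2532, and the share that fell in both was not counted.

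Across the 10 treated libraries, the log2 ratios of *E2F8*, *E2F5* and *E2F2* had the largest root mean squares (1.67, 1.28 and 1.17). Likeness was measured to 8598 genes whose mean log2 CPM exceeded 3 in each experiment. Those with the smallest root mean square difference from *E2F8* were *CKAP2L* (0.24), *MCM10* (0.26) and *KIF11* (0.27). Closest to *E2F2* were *CDCA5*, *TIMELESS* and *NET1* (0.17 each), of 8597 genes compared. Closest to *E2F5* were *ITPRIPL1* (0.20), *F2RL1* (0.22) and *PRKCQ* (0.24).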

How the data were processed

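RNA from 16 MUTZ-3 libraries (TruSeq Stranded mRNA kit) was sequenced by the authors. Per the submitters' processing notes, STAR, Picard and featureCounts were used on hg38 (GRCh38). Versions and the use of strand in counting are not given in the sources used here. The deposited files hold raw counts per gene and TPM, which were computed by the authors from the counts over the whole gene span, as tested on the values. Only the counts were analysed.

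A gene was fitted if 10 or more counts were found in 3 or more of the 9 time-course libraries (17218 genes) or in 2 or more of the 6 knockdown libraries (18606 genes), with edgeR 4.0.16 (TMM, quasi-likelihood) in R 4.3.3. Time point or day was a factor in each model. The slope model, which tests both inhibitor slopes on log2 hours jointly, and the model with 3 hairpin groups had 2 residual degrees of freedom. The mean inhibitor model had 4 and the model with both hairpins as 1 group had 3. P-values were adjusted after Benjamini-Hochberg over all genes, with a threshold of 0.05. Intervals of single-library ratios are exact binomial (95%) and cover counting error only. DESeq2 1.42.0, other scalings, other filters and libraries left out were tried. The steps were tested on simulated data.

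The members and lists were chosen with earlier results of these data known. Named besides the members were *RBL2*, *TFDP1*, *TFDP2* and *MECOM*, up to 4 genes of each list by the ratio in talazoparib at 48 h among those past the slope test, up to 2 by the change with shEVI1-2532, and the 3 genes most alike to each of 3 members. File names of shEVI1-2531 carry another number, and its identity rests on the labels.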

Additional observations from a re-analysis of the deposited data

Results flagged for a closer look

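The effect of the inhibitors differed between hours, by edgeR's test of the slope itself, in 6 members. The slopes were -0.94 (log2 per doubling of hours, adjusted p = 2.3e-12) for *E2F1*, -1.03 (adjusted p = 7.9e-14) for *E2F2*, -0.51 (adjusted p = 0.0448) for *E2F5*, -1.12 (adjusted p = 8.4e-17) for *E2F7*, -1.31 (adjusted p = 1.6e-17) for *E2F8* and -0.85 (adjusted p = 1.1e-08) for *RBL1*. *E2F7* was above DMSO at 12 h and 24 h and below it at 48 h with both inhibitors, whereas *E2F5* was below DMSO at each hour.

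The effects of both hairpins differed, by edgeR's test of shEVI1-2532 against shEVI1-2531, in 4 members. The differences were -0.95 (log2, adjusted p = 0.00315) for *E2F1*, -1.27 (adjusted p = 0.000322) for *E2F2*, -1.14 (adjusted p = 0.00748) for *E2F5* and -1.08 (adjusted p = 0.00649) for *E2F8*. In *RBL1* the difference was -0.26 (adjusted p = 0.349).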

How the results depend on the processing

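With 1 library per condition, the counts of members called depended most on single libraries in the mean inhibitor effect. There, 1 member was called lower, 5 with DESeq2, 6 without a filter on low counts, and 0 with library totals, with at least 50 counts or without the time point, and 0 to 6 with 1 library or time left out. All genes called in that test numbered 718 in edgeR, 3438 with DESeq2, 3728 without a filter, 343 with at least 50 counts, 468 with library totals and 16 without the time point. The slope test called 6 members and 4 to 6 under each alternative. Leaving out the DMSO library of 48 h, so that the mean slope rests on the earlier hours, took all genes called from 2835 to 598. With both hairpins as 1 group, DESeq2 called 3 members, as did edgeR without a filter (2442 and 2728 of all genes, against 308). With shEVI1-2532, 6 members were called and 5 to 7 under each alternative. For shEVI1-2531, 3 members were called and 0 to 3 with 1 library left out. For shEVI1-2532 against shEVI1-2531 it was 4, and 2 to 5 with 1 library left out.

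Some changes that were not called had the other sign elsewhere. The mean effect on *E2F7* was 0.04 with upper quartile scaling, 0.01 with at least 50 counts and 0.46 without the time point. Talazoparib against olaparib gave 0.01 for *E2F1* and 0.09 for *E2F2* without the time point and -0.01 for *E2F4* with library totals. With library totals, both hairpins gave -0.14 for *E2F3* and -0.06 for *RB1*, shEVI1-2532 gave -0.25, -0.28 and -0.12 for *E2F3*, *E2F4* and *RB1*, shEVI1-2531 gave -0.04 for *E2F3*, and the difference of the hairpins was -0.13 for *RB1*. Without a filter, *E2F4* was at -0.01 with shEVI1-2532 and *RB1* at -0.02 between the hairpins. With 1 library or time left out, the ranges that crossed 0 were -0.50 to 0.67 for the mean effect on *E2F7*, and for the slopes -0.33 to 0.13 (*E2F3*), -0.18 to 0.06 (*E2F4*) and -0.37 to 0.10 (*RB1*). For talazoparib against olaparib they were -0.73 to 0.21 (*E2F1*), -0.64 to 0.34 (*E2F2*), -0.09 to 0.03 (*E2F3*), -0.03 to 0.10 (*E2F4*), -0.87 to 0.22 (*E2F7*) and -0.84 to 0.17 (*E2F8*). For both hairpins the range was -0.24 to 0.06 (*E2F4*), for shEVI1-2532 -0.02 to 0.10 (*E2F3*), -0.16 to 0.15 (*E2F4*) and -0.09 to 0.42 (*RB1*), for shEVI1-2531 -0.17 to 0.00 (*E2F2*), -0.82 to 0.18 (*E2F7*) and -0.06 to 0.40 (*RB1*), and between the hairpins -0.20 to 0.02 (*E2F3*) and -0.26 to 0.26 (*RB1*). The cause was not tested. Set against a control library of another time or day, 18 of 100 single-library ratios had the other sign, among them *E2F1* and *E2F2* with shEVI1-2531 at day 6 (from -0.59 to 0.10 and from -0.12 to 0.42) and *E2F4* at 24 h of olaparib (from -0.24 to 0.11) and talazoparib (from -0.34 to 0.01). With library totals it was 7 of 100.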
